A study of Rattus norvegicus with 30 samples.

Results

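The lung mesenchyme is built under a set of transcription factors, and 8 of them were followed here in the lungs of rats with severe acute pancreatitis (SAP). They were Tbx2, Tbx3, Tbx4, Tbx5, Foxf1, Tcf21, Gata6 and Meox2. The genes were taken by their symbols from the 22914 genes in the deposited tables, each symbol had 1 row, and all 8 were among the 15934 genes with enough reads to be tested. The list was set by symbol, with earlier results of these data known. Tbx2 is also a gene that the study had picked from these same libraries, so its direction here is not independent evidence.

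RNA was sequenced from whole lung tissue of male Sprague Dawley rats, 8 weeks old, with 30 libraries in 10 groups of 3 rats. In Sham rats the pancreas was only moved, and in Con rats sterile saline was infused into the biliopancreatic duct. The SAP, DEX and Emo rats received 5.0% sodium taurocholate, a bile salt, into that duct. DEX rats were also given dexamethasone, a synthetic glucocorticoid, intravenously at 10 mg/kg, and Emo rats were given emodin, an anthraquinone from rhubarb, into the stomach. The labels give the emodin dose as 40 mg/kg in the protocol and as 10 mg/kg in the sample descriptions. Drugs were given 2 and 12 hours after the operation, so lungs taken at 6 hours (Sham-6h and so on) had seen 1 dose and those taken at 24 hours had seen both. Every group without a drug received its vehicle, and all rats had fasted and been operated under pentobarbital. Each library was labelled as a separate sample of its group, and reads counted on genes ranged from 16813949 to 34692306 per library. In the study's mapping summary, every SAP, DEX and Emo library had a lower share of uniquely mapped reads than every Sham and Con library. Mapping thus differed along with taurocholate, and its part in the differences from controls was not tested.

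Tbx2, Tbx3, Tbx4 and Tbx5 encode T-box factors, which bind DNA through a shared T domain. Tbx2 and Tbx3 act mostly as repressors and keep embryonic lung mesenchyme dividing, in part by holding down cell cycle inhibitors such as Cdkn1a. Tbx4 and Tbx5 act mostly as activators and are needed for lung bud growth and branching, with Fgf10 in the mesenchyme as a known target. Foxf1 is a forkhead factor of the Hedgehog pathway, used by lung endothelium and fibroblasts, and Tcf21 is a basic helix-loop-helix factor of fibroblasts and lipofibroblasts. Gata6 is a zinc finger factor of several lineages, including lung epithelium and smooth muscle, and Meox2 is a homeobox factor of mesenchyme and vascular cells that restrains proliferation. In RefSeq, Tbx2 and Tbx4 are direct neighbours among protein-coding genes, on rat chromosome 10 in the deposited table, and Tbx5 and Tbx3 are neighbours on chromosome 12. Foxf1 is listed on chromosome 19, Tcf21 on chromosome 1, Gata6 on chromosome 18 and Meox2 on chromosome 6.

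Promoter sequence was matched by symbol for 5 of the 8 genes (Tbx4, Tbx5, Tcf21, Gata6 and Meox2) and not for Tbx2, Tbx3 and Foxf1. Sequences are from RefSeq on the GRCr8 build and run from 250 bases before to 50 bases after the gene start. The 4 shown are those of the members with a matched promoter that passed the test described below in at least 1 comparison, Tbx4, Tbx5, Tcf21 and Meox2. Capitals mark matches, on either strand, to 4 motifs: the E-box CAGCTG, the GC box GGGCGG, the T-box core GGTGTGA and the glucocorticoid receptor core AGAACA. The Tbx4 promoter lies at chr10:71228306-71228605 on the plus strand, that of Tbx5 at chr12:42395310-42395609 on the minus strand, that of Tcf21 at chr1:24520249-24520548 on the plus strand and that of Meox2 at chr6:59583775-59584074 on the plus strand.
Tbx4: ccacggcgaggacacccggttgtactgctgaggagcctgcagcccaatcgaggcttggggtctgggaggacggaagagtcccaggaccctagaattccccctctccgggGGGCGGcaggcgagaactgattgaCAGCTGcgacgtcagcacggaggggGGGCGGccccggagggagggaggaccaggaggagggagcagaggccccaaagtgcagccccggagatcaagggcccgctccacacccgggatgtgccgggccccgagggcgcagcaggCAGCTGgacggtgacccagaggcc
Tbx5: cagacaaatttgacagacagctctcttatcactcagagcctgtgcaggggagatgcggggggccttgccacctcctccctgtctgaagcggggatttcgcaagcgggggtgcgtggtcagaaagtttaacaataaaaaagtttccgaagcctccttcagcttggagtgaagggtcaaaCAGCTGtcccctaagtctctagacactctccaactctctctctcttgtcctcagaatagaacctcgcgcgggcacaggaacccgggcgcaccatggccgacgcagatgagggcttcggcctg
Tcf21: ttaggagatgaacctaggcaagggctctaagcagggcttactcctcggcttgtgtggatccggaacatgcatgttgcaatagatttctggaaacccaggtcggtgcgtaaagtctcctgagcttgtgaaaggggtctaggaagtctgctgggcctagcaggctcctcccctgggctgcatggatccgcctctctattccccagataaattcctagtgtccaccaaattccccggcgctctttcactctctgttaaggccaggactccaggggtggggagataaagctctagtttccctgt
Meox2: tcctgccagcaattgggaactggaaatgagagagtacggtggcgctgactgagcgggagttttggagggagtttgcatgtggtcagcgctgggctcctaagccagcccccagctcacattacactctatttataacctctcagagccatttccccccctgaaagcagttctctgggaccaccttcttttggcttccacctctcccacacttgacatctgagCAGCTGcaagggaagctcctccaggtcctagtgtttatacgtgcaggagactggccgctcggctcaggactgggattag

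The Tbx4 sequence held 2 E-boxes and 2 GC boxes and was 70.0% G or C, above 91.7% of all 33469 promoters of this length. The Tbx5 sequence and the Meox2 sequence held 1 E-box each, with 56% and 55% G or C, and the Tcf21 sequence held none of the 4 motifs, with 53.7% G or C. Among all promoters, 15.1% held the E-box and 33.1% held the GC box. The T-box core (in 3.83% of all promoters) and the glucocorticoid receptor core (in 20.7%) were in none of the 5 windows, which says only that these letters are not there.

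By level, the 8 genes differed widely. Over the 30 libraries the mean was 125 FPKM (fragments per kilobase of gene, scaled to the depth of the library) for Foxf1, 98.4 for Tcf21, 56.7 for Tbx2 and 24.3 for Tbx4. It was 15.6 FPKM for Tbx3, 8.73 for Gata6, 6.98 for Tbx5 and 3.24 for Meox2. Foxf1 thus stood above 97% of the 19065 protein-coding genes and Meox2 above 50.9%. Meox2 rested on the fewest reads, 46 to 592 per library, and each of the other members had at least 354 reads in every library.

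Each member was compared in 21 pairs of groups, which gives 168 member comparisons. In 19 of them the adjusted p was under 0.05 (edgeR's quasi-likelihood test, Benjamini-Hochberg adjustment over all genes tested), which is called past the test below. Those 19 belonged to Tbx2, Tbx4, Tbx5, Tcf21 and Meox2, and 9 of them were changes of at least 2-fold. Summed over the same 21 comparisons, 7.66% of all gene comparisons passed the test and 2.62% did so with at least 2-fold. Tbx3, Foxf1 and Gata6 were past the test in none. Many comparisons share a group of rats, so the 19 are not independent of each other.

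**Figure D1:**
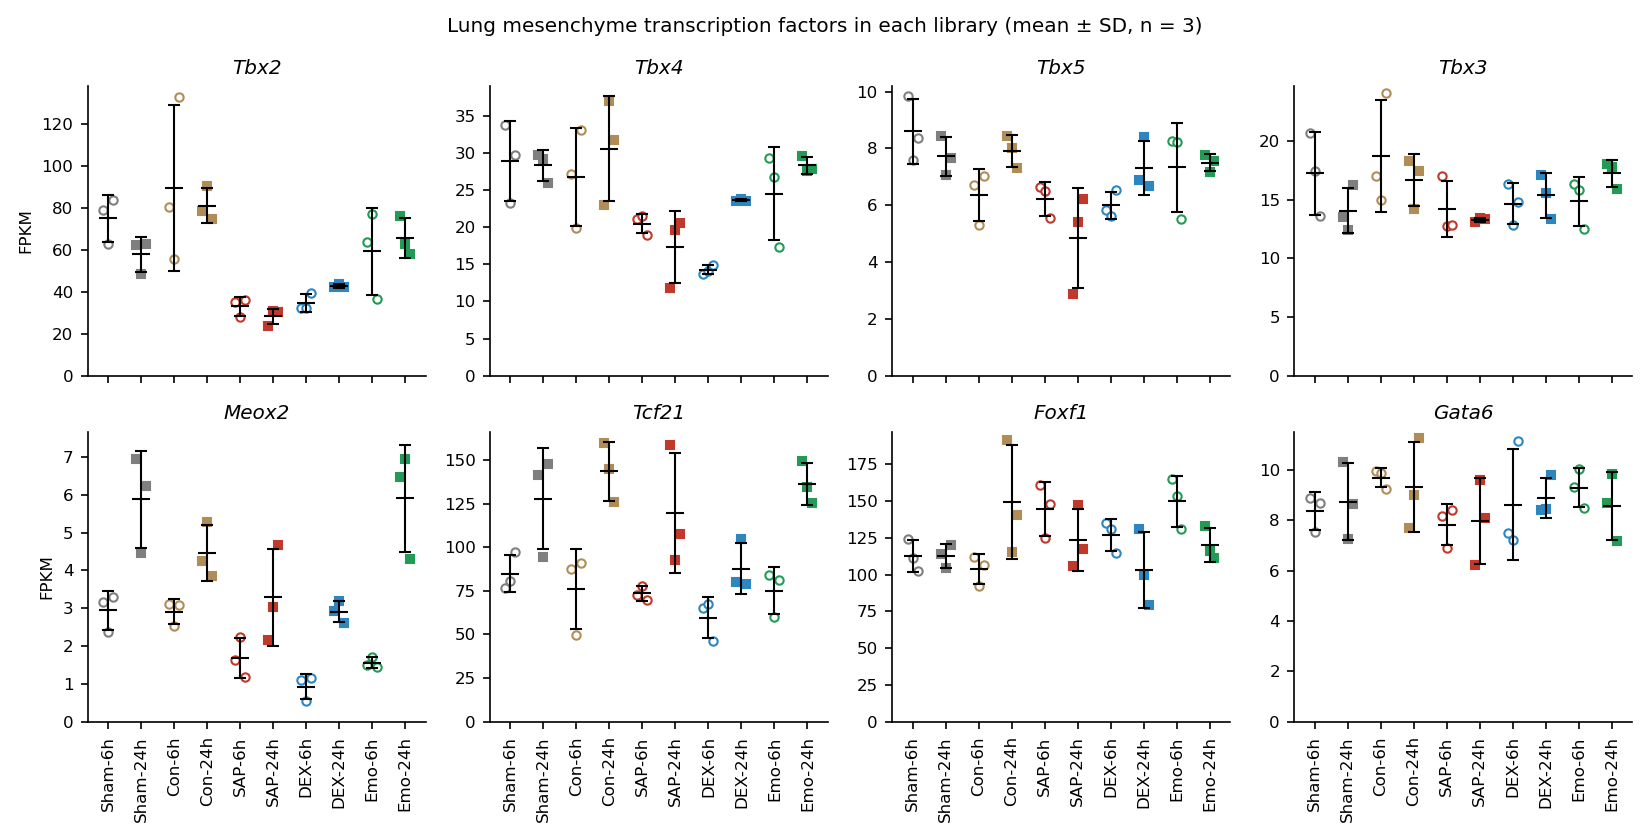
FPKM of each member in every library, by group, on axes that start at 0 (open circles, 6 hours; filled squares, 24 hours; black bars, mean ± SD of 3 rats). All 12 SAP and DEX libraries lay at or under 43.92 FPKM for Tbx2, below all 12 Sham and Con libraries, and Meox2 was lowest in DEX-6h.

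Tbx2 was lower in the lungs of untreated SAP rats than in both kinds of control at both times, and it was higher again in Emo-24h. In Sham-24h its level was 62.40, 48.28 and 62.90 FPKM, and in Con-24h it was 78.29, 90.58 and 74.48 FPKM. In SAP-24h it was 23.96, 30.67 and 30.24 FPKM. The highest SAP-24h rat was therefore well under the lowest control rat of that time. DEX-24h had 42.44, 43.92 and 42.15 FPKM, and Emo-24h had 76.08, 62.70 and 57.95 FPKM. All 3 DEX-24h libraries lay between the SAP-24h and Sham-24h ranges, while Emo-24h overlapped Sham-24h.

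At 6 hours the Tbx2 level was 78.87, 62.57 and 83.59 FPKM in Sham-6h, and 80.20, 55.65 and 132.62 FPKM in Con-6h. In SAP-6h it was 35.17, 28.01 and 36.07 FPKM, and in DEX-6h it was 32.14, 32.11 and 39.41 FPKM. Both sets lay under every control library. Emo-6h was split, with 63.81 and 77.28 FPKM in 2 rats and 36.75 FPKM in the third. Over both times, the 12 SAP and DEX libraries ran from 23.96 to 43.92 FPKM and the 12 Sham and Con libraries from 48.28 to 132.62 FPKM, without overlap, and the 6 Emo libraries ran from 36.75 to 77.28 FPKM.

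Ordered by mean, the Tbx2 level was lowest in SAP-24h (28.3 ± 3.76 FPKM, SD, n = 3), followed by SAP-6h (33.1 ± 4.42) and DEX-6h (34.6 ± 4.21), which overlapped. DEX-24h (42.8 ± 0.949 FPKM) lay above these without overlap, and Sham-24h (57.9 ± 8.30) lay above DEX-24h without overlap. Emo-6h (59.3 ± 20.6 FPKM), Emo-24h (65.6 ± 9.4), Sham-6h (75.0 ± 11), Con-24h (81.1 ± 8.41) and Con-6h (89.5 ± 39.3) followed, and each overlapped its neighbour in the order.

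In the edgeR test across all genes, Tbx2 was the 1 member of 8 that fell in SAP-24h vs Sham-24h, a comparison in which 5.62% of all genes were lower. Its log2 fold change was -0.91 (SE 0.239, adjusted p = 0.017). This count depended on the rule. DESeq2 called 4 members there, among 2729 genes, where edgeR called 1979 genes. By edgeR, Tbx2, Tbx4, Tbx5 and Meox2 had an unadjusted p under 0.05, beside 28.4% of all genes. The 2-fold rule left 0 members, beside 5% of all genes, and a model of the compared groups alone also left 0. Against Con-24h Tbx2 fell by 1.40 on the log2 scale (SE 0.241, adjusted p = 0.000718). At 6 hours, where few genes passed the test, it fell by 1.13 in SAP-6h vs Sham-6h (adjusted p = 0.0427) and by 1.37 in SAP-6h vs Con-6h (adjusted p = 0.0124). It was again the 1 member of 8 past the test in each of them, and the share of all genes that were lower was 0.0377% and 0.0565%. Sham and Con did not give a call for any member, with 0% of genes past the test at 6 hours (0 genes by edgeR, 9 by DESeq2, 1 member, Tbx5, and 8.61% of genes at an unadjusted p under 0.05) and 9.85% at 24 hours. At 24 hours Tbx2 was under Con-24h in all 3 Sham-24h rats, with a log2 fold change of -0.49 (edgeR, unadjusted p = 0.0486, adjusted p = 0.182), and Foxf1 gave -0.41 (unadjusted p = 0.0342, adjusted p = 0.148), where 27% of all genes had an unadjusted p under 0.05. The fall against Sham-24h was lost without replicate 1 of SAP-24h (adjusted p = 0.0751) or without replicate 1 or 3 of Sham-24h (0.058 and 0.0561). The fall against Sham-6h was lost whichever of the 6 libraries was left out (adjusted p from 0.052 to 0.149), and that against Con-6h without replicate 1 or 2 of SAP-6h (0.0618 and 0.0596) or replicate 3 of Con-6h (0.205). The log2 fold change stayed between -1.64 and -0.81 in these fits.

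With the drugs, Tbx2 rose in Emo-24h vs SAP-24h by 1.06 on the log2 scale (SE 0.24, adjusted p = 0.0112), the 1 member of 8 that did, with 3.56% of all genes higher. Without replicate 1 of Emo-24h the adjusted p was 0.0519, and a model of these groups alone also lost the call. In DEX-24h vs SAP-24h the log2 fold change of Tbx2 was 0.52 (95% interval 0.02 to 1.01, adjusted p = 0.194), although the FPKM ranges did not overlap. No member passed the test there, where 7.71% of all genes did. For Emo-24h vs DEX-24h it was 0.54 (interval 0.05 to 1.03, adjusted p = 0.175). Emo-24h vs Sham-24h gave 0.15 for Tbx2, with an interval of -0.34 to 0.64, and 0% of all genes passed the test (0 by edgeR and 0 by DESeq2; 3% of genes and 0 of the 8 members had an unadjusted p under 0.05). That interval does not show that the levels were equal.

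At 6 hours neither drug gave a member call against SAP. Tbx2 was 0.05 in DEX-6h vs SAP-6h (interval -0.44 to 0.54) and 0.82 in Emo-6h vs SAP-6h (interval 0.33 to 1.32, adjusted p = 0.217), both as log2 fold changes. Of all genes, 0.979% and 0.0314% passed the test there. In DEX-6h vs Sham-6h, Tbx2 fell by 1.08 on the log2 scale (SE 0.239, adjusted p = 0.00644), with Tbx4 and Meox2, so that 3 of 8 members were lower beside 4.59% of all genes. In Emo-6h vs Sham-6h no member passed the test, beside 3.26% of all genes, and Tbx2 gave -0.31.

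**Figure D2:**
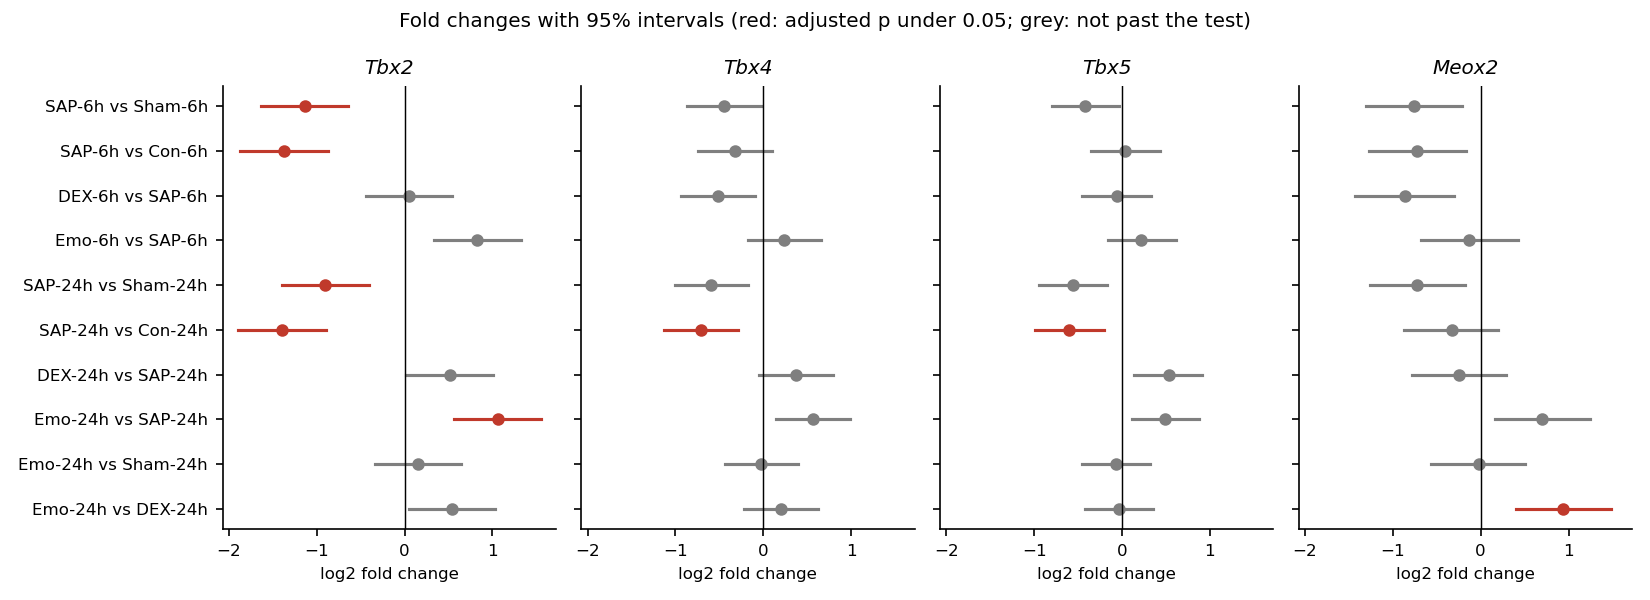
Log2 fold changes of Tbx2, Tbx4, Tbx5 and Meox2 in 10 comparisons, with 95% intervals from the fit across all genes (red, adjusted p under 0.05; grey, not past the test). Tbx2 was below 0 in each comparison of SAP with a control and above 0 in Emo-24h vs SAP-24h.

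Tbx4, the neighbour of Tbx2 on chromosome 10, was lowest in DEX-6h. Its level there was 13.76, 14.15 and 14.97 FPKM, against 21.05, 21.43 and 18.97 FPKM in SAP-6h. Sham-6h had 33.74, 23.21 and 29.71 FPKM, and Con-6h had 27.13, 19.94 and 33.11 FPKM. All 3 DEX-6h rats were below all SAP-6h, Sham-6h and Con-6h rats, and SAP-6h overlapped Con-6h. Emo-6h had 29.26, 26.80 and 17.38 FPKM, and its low library was the same rat that was low for Tbx2.

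By 24 hours the Tbx4 level in DEX rats was 23.50, 23.74 and 23.51 FPKM, above all 3 DEX-6h rats. SAP-24h had 11.75, 19.60 and 20.55 FPKM, and Emo-24h had 29.61, 27.50 and 27.86 FPKM. The controls had 29.71, 29.20 and 25.95 FPKM in Sham-24h and 22.95, 37.02 and 31.73 FPKM in Con-24h. SAP-24h was thus below all other groups of that time, and DEX-24h lay between SAP-24h and Emo-24h without overlap.

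Tbx4 fell in DEX-6h vs Sham-6h by 0.97 on the log2 scale (SE 0.205, adjusted p = 0.00445), and this call was kept whichever of the 6 libraries was left out. It was higher in Emo-6h than in DEX-6h by 0.77 (SE 0.204, adjusted p = 0.0405), the 1 member of 8 past that test beside 1.67% of all genes that were higher. That call was lost in 5 of the 6 fits that left out a library, with adjusted p from 0.0856 to 0.176, and was kept without replicate 3 of Emo-6h. In DEX-24h vs DEX-6h Tbx4 rose by 0.74 (SE 0.204, adjusted p = 0.0107) and this was kept in all 6 such fits. It fell in SAP-24h vs Con-24h by 0.71 (SE 0.204, adjusted p = 0.0157), which was lost without replicate 2 of Con-24h (adjusted p = 0.115) or replicate 1 of SAP-24h (0.104). Against Sham-24h it gave -0.59 (adjusted p = 0.0559), not past the test, as did Emo-24h vs SAP-24h with 0.57 (adjusted p = 0.0787). In Emo-6h vs DEX-6h, 3 of 11 endothelial genes were also higher and 0 lower (27.3% higher), Sox18 by 1.76, Kdr by 0.98 and Eng by 1.04. Of 12 smooth muscle and pericyte genes 1 was higher there (Pdgfrb, by 0.77) and 0 lower. The part of these cells in the Tbx4 value was not tested.

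Tbx5, which is also known from limb and heart development, had 1 call. In SAP-24h its level was 2.87, 5.43 and 6.23 FPKM, and in Con-24h it was 8.43, 8.02 and 7.30 FPKM. Sham-24h had 8.43, 7.06 and 7.67 FPKM, DEX-24h had 6.89, 8.42 and 6.67 FPKM, and Emo-24h had 7.77, 7.17 and 7.56 FPKM. All 3 SAP-24h rats were below all other libraries of that time, and replicate 1, the lowest for Tbx5, was also the lowest of its group for Tbx2 and Tbx4. Tbx5 fell in SAP-24h vs Con-24h by 0.60 on the log2 scale (SE 0.187, adjusted p = 0.0246). With Tbx2 and Tbx4, 3 of 8 members were lower in that comparison, beside 10% of all genes. The Tbx5 call was lost without replicate 1 or 2 of Con-24h (adjusted p = 0.0823 and 0.0788) or replicate 1 of SAP-24h (0.156). Against Sham-24h it gave -0.56 (adjusted p = 0.0513), and in DEX-24h vs SAP-24h it gave 0.53 (adjusted p = 0.0861). At 6 hours it ran from 5.31 FPKM in Con-6h to 9.85 FPKM in Sham-6h and had no call.

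Markers of other cells also differed in SAP-24h, although several of their sums overlapped those of Sham-24h. Over 8 neutrophil genes the summed level was 13300, 4590 and 17700 FPKM in SAP-24h, 407 to 9490 FPKM in Sham-24h and 215 to 1240 FPKM in Con-24h, with 7 of 8 genes higher against Con-24h (beside 12.1% of all genes) and 0 of 8 past the test against Sham-24h. In Emo-24h this neutrophil sum was 4630 to 6820 FPKM, and in Emo-24h vs SAP-24h 1 of 8 fell (Camp, by 2.21 on the log2 scale, beside 5.02% of all genes) and 0 rose. Over 12 genes of smooth muscle and pericytes the sum was 544, 361 and 509 FPKM in SAP-24h, 688 to 901 FPKM in Sham-24h and 653 to 1170 FPKM in Con-24h. Of these 12, 8 fell against Con-24h (beside 10% of all genes) and 0 against Sham-24h. In Emo-24h, where Tbx2 rose against SAP-24h, this sum was 629 to 873 FPKM, above all 3 SAP-24h libraries, and 2 of the 12 rose (Myh11 by 0.89 and Pdgfrb by 0.55 on the log2 scale, adjusted p = 0.0414 and 0.0467, beside 3.56% of all genes) and 0 fell. In DEX-24h it was 569 to 715 FPKM. At 6 hours it was 643 to 745 FPKM in SAP-6h, 841 to 1100 FPKM in Sham-6h and 724 to 1050 FPKM in Con-6h, with 0 of 12 past the test against either control. Of 12 fibroblast genes, 4 fell in SAP-24h vs Sham-24h (Col3a1, Col1a2, Mfap4 and Lum; 33.3%, beside 5.62% of all genes) and 1 rose (Pdgfra), and 2 fell and 1 rose in SAP-24h vs Con-24h. Of 11 endothelial genes, 2 fell against Sham-24h (Kdr and Emcn) and 2 against Con-24h (Kdr and Ramp2), and their summed level was 1740 to 1990 FPKM in SAP-24h, 1890 to 2380 FPKM in Sham-24h and 2620 to 3290 FPKM in Con-24h. Kdr, a receptor for vascular growth factor, also fell in SAP-6h, by 1.21 against Sham-6h and by 1.58 against Con-6h on the log2 scale (adjusted p = 0.0246 and 0.00504), and rose by 0.87 in Emo-24h vs SAP-24h (adjusted p = 0.0236), with Sox18 (0.98). Kdr rose as much, by 0.86 (adjusted p = 0.0241), in DEX-24h vs SAP-24h, with Emcn (0.94) and Sox17 (0.98). Tbx2 gave 0.52 there (interval 0.02 to 1.01, adjusted p = 0.194 by edgeR). Of the 12 fibroblast genes, 1 rose (Lum, by 1.85) and 1 fell (Pdgfra, by 1.08) in Emo-24h vs SAP-24h. Over 5 mesothelial genes the sums were 40.7, 112 and 77.4 FPKM in SAP-24h, 118 to 149 FPKM in Sham-24h and 131 to 219 FPKM in Con-24h. Of 6 alveolar type 1 genes, 2 fell in SAP-24h vs Con-24h (Aqp5 by 1.85 and Ager by 0.98 on the log2 scale) and 1 in SAP-24h vs Sham-24h (Aqp5), and 0 rose in either. Their sums were 1370 to 2670 FPKM in SAP-24h, 2580 to 3380 FPKM in Sham-24h and 2750 to 3700 FPKM in Con-24h. For heart muscle, where Tbx5 and Gata6 are also used, the sum over 8 genes was 11.1, 7.46 and 134 FPKM in SAP-24h, 21.6 to 111 FPKM in Con-24h, 11.8 to 173 FPKM in Sham-24h, 19.5 to 154 FPKM in DEX-24h and 127 to 260 FPKM in Emo-24h. The part of these cells in the results was not tested. In whole lung, fewer cells of a type and less RNA per cell cannot be told apart.

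Meox2 rose with time in the 3 taurocholate-treated sets and was lowest after 1 dose of dexamethasone. Its level was 1.09, 0.55 and 1.15 FPKM in DEX-6h, 1.62, 2.23 and 1.18 FPKM in SAP-6h and 1.50, 1.72 and 1.45 FPKM in Emo-6h. Sham-6h had 3.17, 2.36 and 3.30 FPKM and Con-6h had 3.11, 2.52 and 3.08 FPKM. Every control rat was thus above every taurocholate rat at 6 hours, and all 3 DEX-6h rats were below all SAP-6h rats.

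At 24 hours Meox2 was 2.92, 3.19 and 2.62 FPKM in DEX-24h and 2.15, 3.02 and 4.68 FPKM in SAP-24h. Emo-24h had 6.47, 6.95 and 4.29 FPKM. The controls had 6.95, 4.45 and 6.23 FPKM in Sham-24h and 4.25, 5.28 and 3.86 FPKM in Con-24h. DEX-24h lay below Sham-24h, Con-24h and Emo-24h without overlap, and SAP-24h reached into the control range through 1 rat.

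From 6 to 24 hours Meox2 rose by 1.87 on the log2 scale in Emo rats (SE 0.27, adjusted p = 4.88e-05), by 1.67 in DEX rats (SE 0.273, adjusted p = 0.000248) and by 1.05 in SAP rats (SE 0.267, adjusted p = 0.0238). The first and second of these were kept whichever library was left out. The rise in SAP rats, whose 6 and 24 hour FPKM ranges overlapped, was lost without replicate 3 of SAP-24h (adjusted p = 0.129) or replicate 1 or 3 of SAP-6h (0.0729 and 0.107). Sham rats gave 1.01 (adjusted p = 0.0537) and Con rats 0.67 (adjusted p = 0.356), neither past the test by edgeR. In both, all 24 hour libraries were above all 6 hour libraries in FPKM. DESeq2 called 1 member over time in Sham rats, among 907 genes, and 1 in Con rats, among 156 genes. So the rise was not shown to be absent from controls. The share of all genes that were higher at 24 hours was 17.3% in Emo, 13.6% in DEX and 3.17% in SAP rats, and the share past the test in either direction was 0.992% in Sham and 0.0126% in Con rats.

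Meox2 differed most from sham in DEX rats, which had received both taurocholate and dexamethasone. Against Sham of the same time it gave -0.76 in SAP-6h, -0.89 in Emo-6h and -0.72 in SAP-24h. None of these passed the test (edgeR, adjusted p = 0.204, 0.0614 and 0.0686). In DEX-6h vs Sham-6h Meox2 fell by 1.62 on the log2 scale (SE 0.273, adjusted p = 0.000775), a call kept in all 6 fits with a library left out. In DEX-24h vs Sham-24h it fell by 0.97 (SE 0.262, adjusted p = 0.0251), the 1 member of 8 lower beside 4.27% of all genes. In Emo-24h vs DEX-24h it was higher by 0.94 (SE 0.262, adjusted p = 0.0253), again the 1 member, beside 5.15% of all genes. Each of these 24 hour calls was lost in 5 of 6 fits with a library left out, with adjusted p from 0.0509 to 0.136 for the comparison with sham and from 0.0519 to 0.131 for the other. Leaving out replicate 2 of Sham-24h kept the former, and leaving out replicate 3 of Emo-24h kept the latter. Against SAP the Meox2 value was -0.86 in DEX-6h (adjusted p = 0.142) and -0.25 in DEX-24h (adjusted p = 0.612). Over 12 fibroblast genes the summed level was 321 to 402 FPKM in DEX-24h, 692 to 796 FPKM in Sham-24h and 561 to 987 FPKM in Emo-24h, with 6 of the 12 lower and 0 higher in DEX-24h vs Sham-24h. In DEX-6h vs Sham-6h 0 of these 12 passed the test. Of 11 endothelial genes 3 fell there (27.3%, against 4.59% of all genes), with log2 fold changes of -2.11 for Sox18, -1.45 for Kdr and -0.82 for Eng, and 1 rose (Cldn5, 0.66). Their summed level was 2230 to 2630 FPKM in DEX-6h and 2520 to 2750 FPKM in Sham-6h. The part of fibroblast and endothelial content in the Meox2 values was not tested.

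Tcf21 showed the same order in time at a much higher level. In SAP-6h it was 72.84, 78.05 and 69.78 FPKM and in SAP-24h 158.30, 92.84 and 107.78 FPKM. In Emo-6h it was 84.33, 59.76 and 81.10 FPKM and in Emo-24h 149.23, 134.44 and 125.20 FPKM. The later rats were above the earlier ones without overlap in both sets. Con rats were ordered likewise, with 87.44, 49.51 and 90.89 FPKM at 6 hours and 159.51, 144.99 and 125.71 FPKM at 24 hours. Tcf21 rose by 0.82 on the log2 scale in SAP-24h vs SAP-6h (SE 0.245, adjusted p = 0.0476), so that 2 of 8 members, with Meox2, were higher, beside 3.17% of all genes. It rose by 0.81 in Emo-24h vs Emo-6h (SE 0.245, adjusted p = 0.0135), where Meox2 was again the other of 2 members, beside 17.3% of all genes. In DEX-24h vs DEX-6h the 2 of 8 were Meox2 and Tbx4, beside 13.6% of all genes, and Tcf21 gave 0.57 (adjusted p = 0.0872). In Con rats Tcf21 gave 0.96 (adjusted p = 0.122) and in Sham rats 0.61 (adjusted p = 0.16). The SAP rise was lost in 5 of 6 fits with a library left out (adjusted p from 0.0618 to 0.248) and kept without replicate 2 of SAP-24h, and the Emo rise was lost without replicate 2 of Emo-6h (0.0748). The hours of day at which lungs were taken are not given in the sources used here, and they may have differed between the 2 times. Of 13 circadian clock genes, 7 passed the test in either direction in SAP-24h vs SAP-6h (beside 6.01% of all genes), 4 in DEX-24h vs DEX-6h (beside 25.9%) and 6 in Emo-24h vs Emo-6h (beside 34.1%). Of 12 fibroblast genes, 6 fell and 0 rose in SAP-24h vs SAP-6h, 9 fell and 0 rose in DEX-24h vs DEX-6h, and 7 fell and 1 rose in Emo-24h vs Emo-6h, beside 2.84%, 12.3% and 16.8% of all genes that fell. Of 12 smooth muscle and pericyte genes, 1 fell and 0 rose in SAP, 5 fell and 0 rose in DEX and 5 fell and 1 rose in Emo rats. Of 11 endothelial genes, 0 rose and 1 fell in SAP, 4 rose (Sox18 by 2.04 and Kdr by 1.63 on the log2 scale, Eng and Tek) and 2 fell in DEX, and 3 rose and 3 fell in Emo rats. The part of the clock and of these cells was not tested.

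Foxf1, Tbx3 and Gata6 had no call in any of the 21 comparisons. Foxf1 ran from 79.66 FPKM (DEX-24h) to 191.46 FPKM (Con-24h). Its group means lay between 104 ± 25.8 FPKM in DEX-24h and 150 ± 17.3 FPKM in Emo-6h (SD, n = 3). In SAP-6h all 3 rats (161.30, 124.64 and 147.75 FPKM) were above all 3 Sham-6h rats (124.49, 111.28 and 102.85 FPKM), a difference opposite in sign to that of Tbx2. Its log2 fold change was 0.41 (interval 0.04 to 0.78, adjusted p = 0.319). Tbx3, the close relative of Tbx2, ran from 12.46 to 24.08 FPKM. In SAP-24h it was 13.11, 13.43 and 13.38 FPKM and in Sham-24h 13.55, 12.46 and 16.22 FPKM, and the log2 fold change was 0.05 (interval -0.32 to 0.41). That of Tbx2 in the same rats was -0.91 with an interval of -1.40 to -0.41. Gata6 ran from 6.22 to 11.26 FPKM, with group means from 7.83 ± 0.807 FPKM in SAP-6h to 9.69 ± 0.376 in Con-6h. The Gata6 log2 fold change lay between -0.23 and 0.23 in all 21 comparisons.

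**Figure D3:**
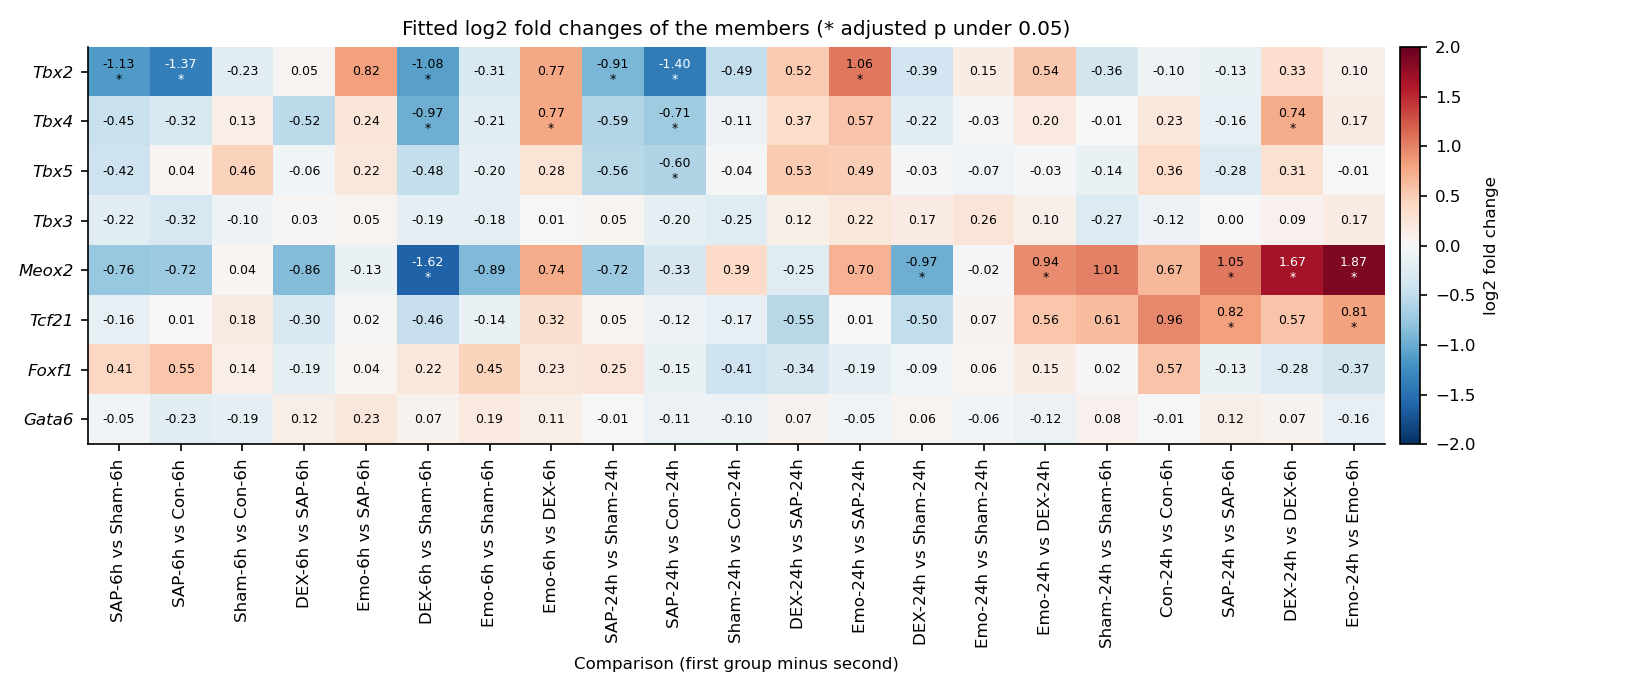
Fitted log2 fold change of each member (rows) in the 21 comparisons (columns, first group minus second), with an asterisk where the adjusted p was under 0.05. The asterisks fall on Tbx2, Tbx4, Tbx5, Meox2 and Tcf21, with none on Tbx3, Foxf1 or Gata6.

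Whether an effect differed between 6 and 24 hours was tested by interaction terms. None of the 8 members passed for SAP vs Sham (lowest adjusted p 0.714; 0.0314% of all genes passed; 0 members and 12.6% of all genes had an unadjusted p under 0.05). For DEX vs SAP the lowest adjusted p was 0.172 (Tbx4; 0.169% of all genes passed; Tbx4, Tbx5 and 13.6% of all genes had an unadjusted p under 0.05). For Emo vs SAP it was 0.186 (Meox2; 3.57% of all genes passed; of the members Meox2 alone, and 23.4% of all genes, had an unadjusted p under 0.05). DESeq2 also called 0 of the 8 members in each, among 160, 268 and 1434 genes, where edgeR called 5, 27 and 569.

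As a set, the members had a median log2 fold change of -0.32 in SAP-6h vs Sham-6h, where the median of all genes was -0.02. The median was -0.28 in SAP-24h vs Sham-24h (all genes -0.03), 0.35 in Emo-24h vs SAP-24h (all genes 0.02), 0.10 in DEX-24h vs SAP-24h (all genes 0) and 0.02 in Emo-24h vs Sham-24h (all genes -0.01). These comparisons share SAP or Sham rats.

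Across the 30 libraries, members were correlated on the scale of log2 CPM (counts scaled to the library's depth) after TMM normalization. Of 28 pairs, 6 had an adjusted p under 0.05 (100000 permutations, two-sided, Benjamini-Hochberg over the 28), and r ran from -0.249 to 0.789 with a median of 0.214. The permutations shuffled all 30 libraries freely, although libraries of 1 group share treatment and time, so these p values are descriptive. The share of all gene pairs that would pass the same rule was not computed. Tbx2 and Tbx4 were the closest pair (r = 0.789, adjusted p = 9.33e-05, from a p of 1e-05, the smallest that these permutations can give; rho = 0.812 with the same p values). Without the 2 libraries farthest from the median of Tbx2, r was 0.809. It was 0.76 within the 18 taurocholate libraries (adjusted p = 0.00439), 0.554 within the 12 Sham and Con libraries (adjusted p = 0.289) and 0.709 between deviations from the group means. Tbx4 and Tbx5 gave r = 0.751 (adjusted p = 9.33e-05; rho = 0.751), 0.713 without 2 libraries, 0.766 and 0.597 in the 18 and 12 libraries, and 0.762 between deviations. Tbx2 and Tbx5 gave r = 0.619 (adjusted p = 0.00101; rho = 0.683, adjusted p = 0.00021) and 0.704 without 2 libraries, and r was 0.685 and 0.294 in the 18 and 12 libraries and 0.607 between deviations. The values between deviations compare each rat with the others of its own group, and are given without a test.

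Tcf21 and Meox2 gave r = 0.72 (adjusted p = 9.33e-05; rho = 0.813), 0.765 without 2 libraries and 0.727 and 0.83 in the 18 and 12 libraries (adjusted p = 0.00497 and 0.0227). Between deviations from the group means it was 0.0578, so rats of 1 group showed little of the relation, and groups differ in time. Tbx4 and Meox2 gave r = 0.659 (adjusted p = 0.00049; rho = 0.585, adjusted p = 0.0047), 0.669 without 2 libraries and 0.619 and 0.411 in the 18 and 12 libraries. Between deviations it was lower, at 0.414. Tbx2 and Tbx3 gave r = 0.557 (adjusted p = 0.00639; rho = 0.477, adjusted p = 0.034), which dropped to 0.379 without the 2 libraries farthest from the median, and was 0.531 and 0.677 in the 18 and 12 libraries, neither past the adjustment. Between deviations it was 0.537.

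**Figure D4:**
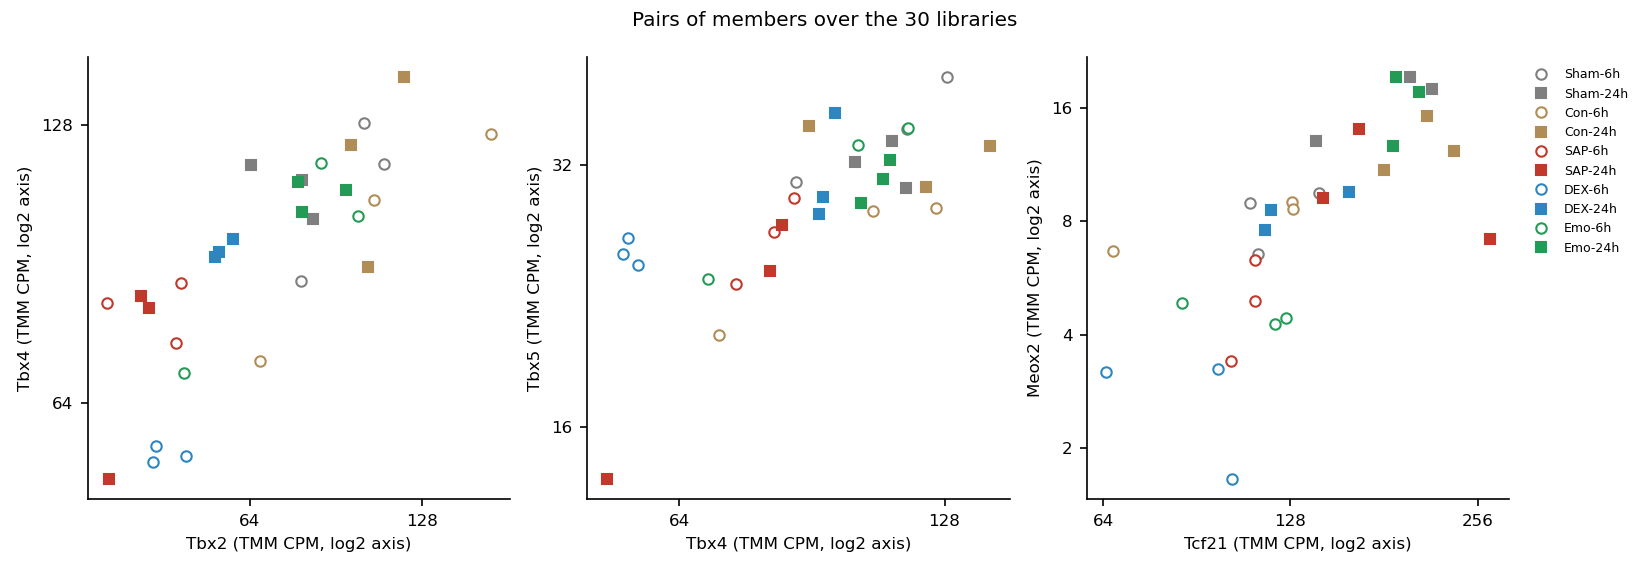
Levels of 3 pairs of members in the 30 libraries as TMM CPM on log2 axes, coloured by group (open circles, 6 hours; filled squares, 24 hours). Tbx4 rises with Tbx2 and Tbx5 with Tbx4, and for Tcf21 and Meox2 the 24 hour libraries of most groups sit above and to the right of the 6 hour ones.

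The genes most like a member were sought among 12368 candidates by Pearson's r over the same 30 libraries, as a description. For Tbx2 they were Cdc42ep1 (r = 0.919), Pcdh1 (0.899) and Glis2 (0.889). Glis2 (0.922) was also the first for Tbx4, followed by Avpr1a (0.879) and Eml1 (0.866). Avpr1a, a vasopressin receptor, led for Tbx5 (0.774), with Gal3st4 (0.771) and Mcee (0.766). Meox2 was closest to G0s2 (0.923), an inhibitor of fat breakdown, then Kank4 (0.9) and Klhl13 (0.894). Tcf21 was closest to Meis1 (0.819), AABR07009834.1 (0.798) and Lmo2 (0.797), Foxf1 to Hlx (0.688), Lmcd1 (0.679) and LOC100912697 (0.664), Gata6 to Arhgap44 (0.777), Vasn (0.771) and Eps8l2 (0.766), and Tbx3 to Snx33 (0.646), Vamp2 (0.589) and Rasl11a (0.589).

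Other transcription factors of mesenchyme had calls in part of these comparisons. Of 36 tested, 0 passed the test in SAP-6h vs Sham-6h and 0 in SAP-6h vs Con-6h, where Tbx2 fell. Of the 36, 5 (13.9%) fell and 0 rose in SAP-24h vs Sham-24h, with a median log2 fold change of -0.25, where 5.62% of all genes fell. Among them were the homeobox genes Hoxa2 (-1.61, adjusted p = 0.00326) and Hoxa5 (-0.73, adjusted p = 0.0177), Mef2c (-0.93, adjusted p = 0.019), a muscle and vascular factor, and Gata5 (-1.01, adjusted p = 0.0262). In SAP-24h vs Con-24h 5 (13.9%) fell and 0 rose, where 10% of all genes fell. In Emo-24h vs SAP-24h 5 of the 36 rose (13.9%, against 3.56% of all genes) and 0 fell (median 0.39), Gata5 by 1.32, Hoxa2 by 1.34, Mef2c by 0.95 and Hoxa5 by 0.71 on the log2 scale. In DEX-24h vs SAP-24h 2 rose (5.56%, against 2.99% of all genes), and these were the Hedgehog effectors Gli2 (1.10, adjusted p = 0.00684) and Gli1 (1.39, adjusted p = 0.0313). In DEX-6h vs Sham-6h 11 of 36 fell (30.6%, against 4.59% of all genes), led by Zeb2 (-1.06), Gata5 (-1.53), Meis2 (-0.68) and Hoxa2 (-1.49). From 6 to 24 hours, 10 rose and 1 fell in DEX rats and 10 rose and 2 fell in Emo rats (27.8% higher in each, against 13.6% and 17.3% of all genes), with Meis1 and Nr2f2 among those that rose in both. In SAP rats 1 of the 36 rose over time (Meis1, 2.78%, against 3.17% of all genes) and 0 fell. In Sham rats and in Con rats 0 passed the test.

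Among 20 signals and known T-box targets, 4 (20%) rose and 0 fell in SAP-24h vs Sham-24h, where 6.8% of all genes rose. They were the connexins Gja5 (log2 fold change 1.32, adjusted p = 0.00805) and Gja1 (0.67, adjusted p = 0.0343), both repressed by Tbx2 in the heart, the Wnt inhibitor Frzb (1.08, adjusted p = 0.0323) and the fibroblast receptor Pdgfra (0.86, adjusted p = 0.0425). Against Con-24h 7 rose and 2 fell, beside 12.1% and 10% of all genes. The 7 were the same 4 with Cdkn1b, Bmp5 and Fgf10, and the 2 were Smo and Wnt2b. In SAP-6h vs Sham-6h 1 rose (Frzb, beside 0.232% of all genes) and 0 fell, and in SAP-6h vs Con-6h 0 passed the test (beside 0.207% of all genes). In Emo-24h vs SAP-24h 0 rose and 3 fell (15%, against 5.02% of all genes), Pdgfra by 1.08, Gja1 by 0.79 and Cdkn1a by 1.72 on the log2 scale. In DEX-24h vs SAP-24h 3 also fell (15%, against 4.73% of all genes), Pdgfra by 1.54, Gja5 by 1.08 and Gja1 by 0.66, and 1 rose. Tbx2 gave 0.52 there (interval 0.02 to 1.01, adjusted p = 0.194 by edgeR). Whether Tbx2 acted on these genes was not tested.

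Cdkn1a, the cell cycle inhibitor named above, had 44.7 FPKM in Emo-24h, 134 FPKM in SAP-24h and 146 FPKM in DEX-24h, as means of 3 rats. Besides the fall in Emo-24h vs SAP-24h, it fell by 1.74 in Emo-24h vs DEX-24h and by 1.50 in Emo-24h vs Emo-6h and rose by 2.03 in DEX-6h vs Sham-6h (adjusted p = 0.0204, 0.015 and 0.00866). In the 4 comparisons of SAP with a control, Cdkn1a did not pass the test. It gave 1.34 and 1.16 against Sham-24h and Con-24h (adjusted p = 0.0567 and 0.0721) and 0.64 and 0.50 against Sham-6h and Con-6h (adjusted p = 0.597 and 0.767). Fgf10, the growth factor downstream of Tbx4 and Tbx5, had 3.33 FPKM in DEX-24h and passed the test in 6 of the 21 comparisons, higher in each. It was higher in DEX-24h than in SAP-24h (0.64), Sham-24h (0.58) and DEX-6h (0.66), in Emo-24h than in Emo-6h (0.64), and in SAP-24h (0.50) and Sham-24h (0.57) than in Con-24h, all on the log2 scale. In these 6, Tbx4 rose in DEX-24h vs DEX-6h, fell in SAP-24h vs Con-24h and did not pass the test in the other 4. Tbx5 fell in SAP-24h vs Con-24h and did not pass the test in the other 5. Whether Tbx2 acted on Cdkn1a, or Tbx4 and Tbx5 on Fgf10, was not tested.

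Other T-box genes were scarce in these lungs. Of 13 matched, 9 were tested, and only Tbx1 (4.61 FPKM over all libraries), Tbx21 (2.73) and Mga (1.27) had a mean above 1 FPKM. None of the 9 passed the test in SAP-24h vs Sham-24h. In SAP-24h vs Con-24h 2 fell, Tbx1 by 0.53 and Tbx21 by 1.71 on the log2 scale (adjusted p = 0.0147 and 0.0376), and Mga rose by 0.75 (adjusted p = 0.0174), beside 10% of all genes that fell and 12.1% that rose. Tbx1 rose in DEX-6h vs Sham-6h by 0.66 (adjusted p = 0.00822) and in DEX-24h vs SAP-24h by 0.53 (adjusted p = 0.0335). Tbx21, the factor of type 1 T helper and natural killer cells, fell in DEX-6h vs Sham-6h by 1.98 and in DEX-24h vs Sham-24h by 2.27 (adjusted p = 0.0328 and 0.0215). It was higher in Emo-24h than in SAP-24h by 1.88 and than in DEX-24h by 2.64 (adjusted p = 0.0468 and 0.00764). Eomes, a related factor of natural killer and T cells with group means of 0.0667 FPKM in DEX-24h, 0.577 in Sham-24h and 0.547 in Emo-24h, had calls in DEX-24h vs Sham-24h (-2.98, adjusted p = 0.0367) and in Emo-24h vs DEX-24h (2.85, adjusted p = 0.0395).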

How the data were processed

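RNA-seq was measured in 30 lung libraries. The authors removed adaptors, aligned read pairs to rat_ensembl_v6 using TopHat2 and kept uniquely mapped reads. Raw counts per gene were deposited, as were FPKM values with 2 decimals. The counting program is not given in the sources used here.

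Counts of genes passing filterByExpr (minimum count 10, minimum total 15) were scaled by TMM and fitted in R 4.3.3 with edgeR 4.0.16 as a quasi-likelihood model of 10 groups, which leaves 20 residual degrees of freedom, with Benjamini-Hochberg adjustment over 15934 genes. Levels are FPKM. Correlations used Python 3.11.15 (numpy 2.4.6, pandas 2.3.3, scipy 1.17.1), and figures matplotlib 3.10.9. All members were named, with fold changes where past the test and for Tbx2 in 4 comparisons regardless; others chosen after their values were seen are given as context. Of each further list up to 4 genes with the smallest adjusted p per comparison qualified, further genes of these lists were named after their values were seen, and 3 like genes per member needed a mean of at least 1 FPKM.

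The members and lists were chosen with earlier results of these data known. The fits were tested on simulated data. Alternatives were RLE scaling, DESeq2 1.42.0, no filter, models of the compared groups alone, a replicate block, an unadjusted p, the 2-fold rule, pseudocounts of 1 and 0.1, and each library left out. Replicate numbers paired libraries in DEX-24h vs DEX-6h alone, from the data (correlations of deviations 0.212, 0.221 and 0.23), and the block kept both calls there.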

Additional observations from a re-analysis of the deposited data

Results flagged for a closer look

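Tbx4 in DEX rats lay on opposite sides of SAP rats at the 2 times. At 6 hours all 3 DEX rats (13.76, 14.15 and 14.97 FPKM) were below all 3 SAP rats (21.05, 21.43 and 18.97 FPKM), and at 24 hours all 3 (23.50, 23.74 and 23.51 FPKM) were above (11.75, 19.60 and 20.55 FPKM). The interaction term was 0.90 on the log2 scale (SE 0.287, unadjusted p = 0.00478, adjusted p = 0.172 by edgeR), so the difference between the times did not pass the adjustment over all genes. It was singled out among the 8 members and 3 interactions for this separation of the libraries.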

How the results depend on the processing

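Of 231 values of the named fold changes under alternatives, 175 kept direction and call, 55 lost the call, 1 gained it and 0 turned direction. RLE scaling and DESeq2 kept all 21 named results. The count of members past the test changed by over 1.5 times as follows. With an unadjusted p under 0.05 it was 5 in SAP-6h vs Sham-6h (beside 13.1% of all genes), 4 in SAP-24h vs Sham-24h (28.4%) and Emo-24h vs SAP-24h (26.3%), and 3 in DEX-24h vs SAP-24h (23.1%), SAP-6h vs Con-6h (10.4%), Emo-24h vs DEX-24h (21.2%), Emo-6h vs DEX-6h (17.3%) and Con-24h vs Con-6h (10.5%). It was then 2 in DEX-6h vs SAP-6h (12.1%), Emo-6h vs Sham-6h (22.6%), Sham-24h vs Con-24h (27%), Sham-24h vs Sham-6h (20.4%) and the DEX interaction (13.6%), and 1 in Sham-6h vs Con-6h (8.61%), Emo-6h vs SAP-6h (13.5%) and the Emo interaction (23.4%). The study's rule of at least 2-fold left 0 in SAP-24h vs Sham-24h (beside 5% of all genes), Emo-6h vs DEX-6h (1.41%), DEX-24h vs Sham-24h (4.15%) and Emo-24h vs DEX-24h (5.06%). It left 1 in SAP-24h vs Con-24h (6.91%) and in SAP (2.42%), DEX (7.14%) and Emo (9.41%) over time. DESeq2 gave 4 in SAP-24h vs Sham-24h (among 2729 genes called) and 2 in Emo-6h vs DEX-6h (871). It gave 1 in Emo-6h vs Sham-6h (1287), Sham-24h vs Sham-6h (907) and Con-24h vs Con-6h (156).

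Models of the compared groups alone, with fewer residual degrees of freedom, left 0 in SAP-6h vs Sham-6h, SAP-6h vs Con-6h, Emo-6h vs DEX-6h, SAP-24h vs Sham-24h, Emo-24h vs SAP-24h and SAP-24h vs SAP-6h, 1 in SAP-24h vs Con-24h and 3 in Emo-24h vs DEX-24h. There Tbx2 gave adjusted p = 0.0616 in SAP-24h vs Sham-24h and 0.0706 in Emo-24h vs SAP-24h. Without a filter SAP-24h vs SAP-6h kept 1, as Tcf21 gave 0.0525. With the replicate block 0 remained in SAP-6h vs Sham-6h (Tbx2, adjusted p = 0.0555), 0 in Emo-6h vs DEX-6h (Tbx4, 0.0579) and 1 in SAP-24h vs SAP-6h (Tcf21, 0.0539), and the block changed no other call. Libraries with the same number came from different rats, and no label links them.

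Leaving out a library gave 0 to 0 in SAP-6h vs Sham-6h, 0 to 1 in SAP-6h vs Con-6h, DEX-24h vs SAP-24h, DEX-24h vs Sham-24h and Emo-24h vs DEX-24h, 0 to 2 in Emo-6h vs DEX-6h and SAP-24h vs SAP-6h, 0 to 3 in SAP-24h vs Sham-24h and Emo-24h vs SAP-24h, 1 to 3 in SAP-24h vs Con-24h and 1 to 2 in Emo-24h vs Emo-6h. The 3 and the gained calls came without replicate 3 of SAP-24h (Tbx2, Tbx5 and Meox2, and Tbx5 in DEX-24h vs SAP-24h) or replicate 3 of Emo-6h (Tbx2 and Tbx4). Correlated pairs numbered 10 on log2(FPKM + 1) and on log2(FPKM + 0.1), with the same 6 among them, 7 by Spearman, 5 in the 18 taurocholate libraries and 1 in the 12 Sham and Con libraries. The causes were not tested. With 3 rats a group, a missed call says little about a member, most of all for Meox2, which had as few as 46 reads.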
